A study of Rattus norvegicus with 4 samples.

Results

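The genes described here encode the kinases and adaptors that lie above SGK1, the serum- and glucocorticoid-regulated kinase through which aldosterone acts on the epithelial sodium channel, together with Ddit4, a brake on the kinase mTOR. They were chosen by name, and the array row carrying a single gene symbol was taken for each. All 8 genes (Irs1, Irs2, Pik3r1, Pik3ca, Pdpk1, Rictor, Mapkap1 and Ddit4) were measured, each by 1 row, among 13215 genes named in this way. Expression was measured on exon arrays in surface cells shaken off the distal colon of 4 Wistar rats aged 12 weeks, with 1 array per rat. Every rat had lost both adrenal glands 4 days earlier and drank 0.9% NaCl, so both groups lacked adrenal hormones other than those given. In the aldosterone group, 2 rats received 50 µg of the hormone per 100 g body weight under the skin and a minipump delivering 10 µg/kg per hour for 2 h, and their cells were shaken off over 40 min in 100 nM aldosterone. In the vehicle group, 2 rats received the same injection, pump and shaking without the hormone. The comparison asked which transcripts differ between the groups.

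Insulin and related growth factors act through receptor kinases that phosphorylate the insulin receptor substrates IRS1 and IRS2. These docking proteins recruit phosphoinositide 3-kinase (PI3K), whose lipid product brings the kinase PDK1 and its substrates to membranes. SGK1 becomes active when mTOR complex 2 (mTORC2) phosphorylates its hydrophobic motif and PDK1 then phosphorylates its activation loop. Aldosterone is known for raising the amount of SGK1 in the distal colon and kidney, whereas insulin and PI3K signalling set how active that SGK1 is. These steps are changes of proteins, and the arrays measured transcripts only.

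Promoter sequences are shown for the 4 members whose RefSeq window lies wholly outside the gene's own annotated span, among which are the 3 members whose groups did not overlap in the results. Each is the 250 bases before the annotated start in the GRCr8 assembly, printed in the direction of transcription, with capitals marking GC boxes (GGGCGG) and CCAAT boxes on either strand. A GC box is a short motif bound by SP-family factors, and a CCAAT box is bound by NF-Y. The windows are Irs1 at chr9:91053960-91054209 on the minus strand, Ddit4 at chr20:28437038-28437287 on the minus strand, Rictor at chr2:57539029-57539278 on the plus strand and Pik3r1 at chr2:34697661-34697910 on the minus strand.
Irs1: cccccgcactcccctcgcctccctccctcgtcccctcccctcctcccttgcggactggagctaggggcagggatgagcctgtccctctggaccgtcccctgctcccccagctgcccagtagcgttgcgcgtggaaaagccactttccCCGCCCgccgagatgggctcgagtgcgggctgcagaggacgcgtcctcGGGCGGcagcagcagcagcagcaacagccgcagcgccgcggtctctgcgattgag
Ddit4: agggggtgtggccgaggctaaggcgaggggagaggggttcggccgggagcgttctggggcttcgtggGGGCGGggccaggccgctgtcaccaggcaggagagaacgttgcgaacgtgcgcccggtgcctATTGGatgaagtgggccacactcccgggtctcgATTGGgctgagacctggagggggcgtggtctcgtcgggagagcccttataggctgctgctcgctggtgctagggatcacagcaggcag
Rictor: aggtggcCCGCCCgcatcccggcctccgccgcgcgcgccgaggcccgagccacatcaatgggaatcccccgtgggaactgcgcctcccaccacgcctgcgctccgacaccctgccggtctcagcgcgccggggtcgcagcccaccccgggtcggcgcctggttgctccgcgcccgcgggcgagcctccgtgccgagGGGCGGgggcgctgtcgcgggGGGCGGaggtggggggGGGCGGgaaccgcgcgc
Pik3r1: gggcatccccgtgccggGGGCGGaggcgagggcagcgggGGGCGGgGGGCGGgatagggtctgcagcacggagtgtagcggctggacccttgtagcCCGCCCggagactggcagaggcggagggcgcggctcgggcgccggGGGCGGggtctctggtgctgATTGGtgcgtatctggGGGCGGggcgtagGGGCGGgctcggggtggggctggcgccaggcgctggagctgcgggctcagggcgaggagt

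These windows were rich in G and C, at 70.8% for Irs1, 67.6% for Ddit4, 80.4% for Rictor and 77.2% for Pik3r1, against a median of 51.2% over 33469 windows of that length. Irs1 held 2 GC boxes and no CCAAT box, whereas Ddit4 held 1 GC box and 2 CCAAT boxes, the latter ending 117 and 84 bases before the start. Over all windows, 30.5% held a GC box and 34.0% a CCAAT box. The full glucocorticoid response element, AGAACA followed after 3 bases of any kind by TGTTCT, is also bound by the mineralocorticoid receptor. It was in none of the 7 member windows in the table and in 4 windows (0.012%) of all genes. AGAACA alone, which is 1 arm of that element, was found in 17.5% of windows and among the 7 in that of Pik3ca only. TGTTTAC, a motif bound by FoxO factors and found in 3.21% of windows, was in those of Pik3ca and Mapkap1. The windows of Pik3ca and Pdpk1 lie wholly inside the annotated span of their own gene, that of Mapkap1 lies partly inside, and they are not printed. The Pik3ca window, at 117147049 to 117147298 on chromosome 2, falls within a gene annotated from 117103643 to 117177411. Its AGAACA and TGTTTAC matches are therefore inside the gene and not before its annotated 5' end. A match is only a run of letters, and the arrays did not measure binding.

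Values are on the log2 scale as the authors deposited them, and a difference is aldosterone minus vehicle. The median of all 19403 rows ranged from 2.22 to 2.44 over the 4 arrays, and 65% of rows averaged under 3, near the floor of the arrays. The 10 measured of 13 listed markers of surface colonocytes averaged from 10.15 to 10.87 on the log2 scale in the 4 rats, although 1 of them, Slc9a3, lay from 2.48 to 3.99 in 3 rats and at 8.39 in aldosterone replicate 1. The average stayed from 1.93 to 2.29 for 6 of 8 markers of crypt and cycling cells, from 2.46 to 2.77 for 7 of 10 immune markers and from 2.72 to 2.93 for 6 of 10 markers of fibroblasts, muscle and endothelium. Goblet cell markers (4 of 8 measured) averaged 6.48 and 6.24 in vehicle rats and 6.36 and 7.46 in aldosterone rats, but they did not move together. Zg16 stood at 5.14 and 4.45 in vehicle rats and at 6.39 and 8.06 in aldosterone rats. Tff3 stood at 11.12 and 10.74 against 9.44 and 11.30. Agr2 lay from 7.69 to 8.52, and Spink4 near the floor from 1.77 to 1.96. Of 6 measured enteroendocrine markers 5 had a mean below 3, and Cck lay from 5.99 to 6.81. These are whole cell samples, so fewer cells of a type and less RNA per cell cannot be told apart.

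None of the 8 members passed an adjusted p of 0.05 in limma, which was fitted to all 19403 rows, of which 0% passed. Each member's adjusted p was 1.00. An unadjusted p under 0.05 was found for 1 member, Irs1, and for 4.53% of all rows. The 2 groups did not overlap in 3 of the 8 members, or 37.5%, against 27.8% of all rows. Irs1 and Ddit4 were higher in both aldosterone rats, as were 16.7% of rows, and Rictor was lower in both, as were 11.1% of rows. The median difference over the members was 0.00885, with 4 higher and 4 lower, and that over all rows was 0.0239. All rows include the 65% that averaged under 3, whereas every member averaged above 3. With a prior spread that follows expression level, limma called 0.108% of all rows and none of the members. An exact permutation test of 2 against 2 rats cannot give a two-sided p below 0.333, so it could not pass the threshold for any gene.

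**Figure D1:**
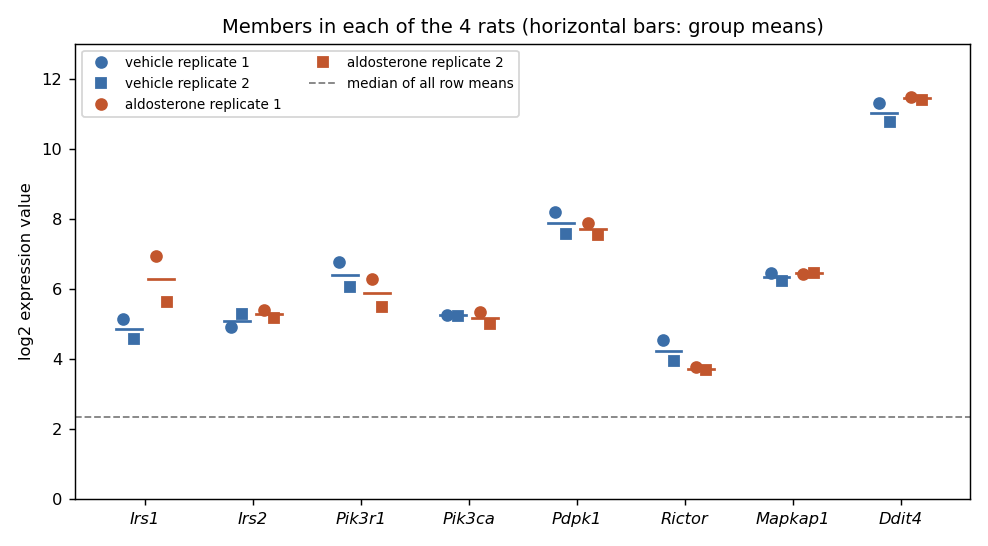
Log2 expression value (vertical axis) of each member in the 4 rats, with vehicle in blue, aldosterone in orange and group means as horizontal bars. The groups are apart for Irs1 and Ddit4 (aldosterone higher) and for Rictor (aldosterone lower), and all members lie above the median of all row means, 2.35.

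Irs1 showed the largest difference among the members. This adaptor binds the activated insulin and IGF1 receptors and carries the phosphotyrosines that dock PI3K. Its log2 value (row 7364446) was 5.15 and 4.58 with vehicle against 6.93 and 5.64 with aldosterone. Both aldosterone rats stood above both vehicle rats, with aldosterone replicate 1 far above the other. The group means were 4.87 ± 0.40 and 6.28 ± 0.91 (SD, n = 2 each), a difference of 1.42 on the log2 scale or 2.67-fold. The 95% interval of the limma fit ran from 1.03-fold to 6.92-fold (unadjusted p = 0.0455, adjusted p = 1.00). With each array centred on its median the log2 interval ran from -0.17 to 2.89. The difference was 0.78 without aldosterone replicate 1 and 2.06 without aldosterone replicate 2. A difference at least this large in either direction was found in 67 of all rows (0.345%). All rows include the 65% that averaged under 3, near the floor, whereas Irs1 averaged 5.58. The share among rows at its level was not computed.

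Irs2 encodes the second widely expressed substrate of the insulin receptor. It stood at 4.92 and 5.27 without the hormone and at 5.41 and 5.16 with it. The groups overlapped, and the difference of 0.19 was smaller than the gap of 0.35 between the vehicle rats. Its interval, from 0.811-fold to 1.60-fold, left out the 2.67-fold estimate of Irs1. The difference between the 2 substrates was not tested.

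Of the PI3K subunits, Pik3r1 encodes the regulatory subunit p85 alpha, which binds the phosphorylated substrates and holds the catalytic subunit. Its values were 6.76 and 6.05 with vehicle and 6.27 and 5.49 with aldosterone. The lower vehicle rat lay below the higher aldosterone rat, so the groups overlapped. The difference was -0.53, or 1.44-fold lower, with an interval from 2.98-fold lower to 1.44-fold higher (adjusted p = 1.00 in limma). It ranged from -0.92 without aldosterone replicate 1 to -0.13 without aldosterone replicate 2. The gaps between rats of a group were 0.71 and 0.78, both larger than the difference.

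Pik3ca encodes p110 alpha, the catalytic subunit that insulin receptors chiefly use. Its values were 5.26 and 5.24 after vehicle and 5.35 and 4.99 after aldosterone. The aldosterone rats lay on either side of the vehicle pair, and the difference was -0.0856 with an interval from -0.52 to 0.35.

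Pdpk1 encodes PDK1, which phosphorylates the activation loop of SGK1, AKT and related kinases. The vehicle rats had values of 8.20 and 7.57, and the aldosterone rats 7.88 and 7.55. These groups overlapped too, with a difference of -0.18 and an interval from -0.91 to 0.56. The gap between the vehicle rats was 0.63. Without vehicle replicate 1 the difference was 0.14.

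Rictor and Mapkap1 encode subunits of mTORC2. Rictor encodes the scaffold that defines the complex, and its log2 values were 4.54 and 3.93 with vehicle and 3.76 and 3.68 with aldosterone. Both aldosterone rats lay below both vehicle rats, although the lower vehicle rat was close to them. The difference was -0.52, or 1.43-fold lower, with an interval from 2.25-fold lower to 1.10-fold higher (unadjusted p = 0.0934, adjusted p = 1.00 in limma). It was -0.21 without vehicle replicate 1 and -0.82 without vehicle replicate 2. Mapkap1 encodes SIN1, the subunit that presents SGK1 and AKT to mTOR. The vehicle rats read 6.46 and 6.22 for this gene, and the aldosterone rats 6.43 and 6.46. The groups overlapped, and the interval of its difference, from -0.25 to 0.45, was the narrowest among the members.

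Ddit4 encodes REDD1, which restrains mTOR complex 1 through the TSC proteins and is known as a target of glucocorticoids and hypoxia in other tissues. Among the vehicle rats it read 11.30 and 10.76, and among the aldosterone rats 11.48 and 11.41. The groups did not overlap, but the higher vehicle rat came close to the aldosterone pair. The difference was 0.41 or 1.33-fold, with an interval from 0.885-fold to 1.99-fold (unadjusted p = 0.125, adjusted p = 1.00 in limma). It was 0.14 without vehicle replicate 2 and 0.68 without vehicle replicate 1. With arrays centred on their medians the groups overlapped.

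**Figure D2:**
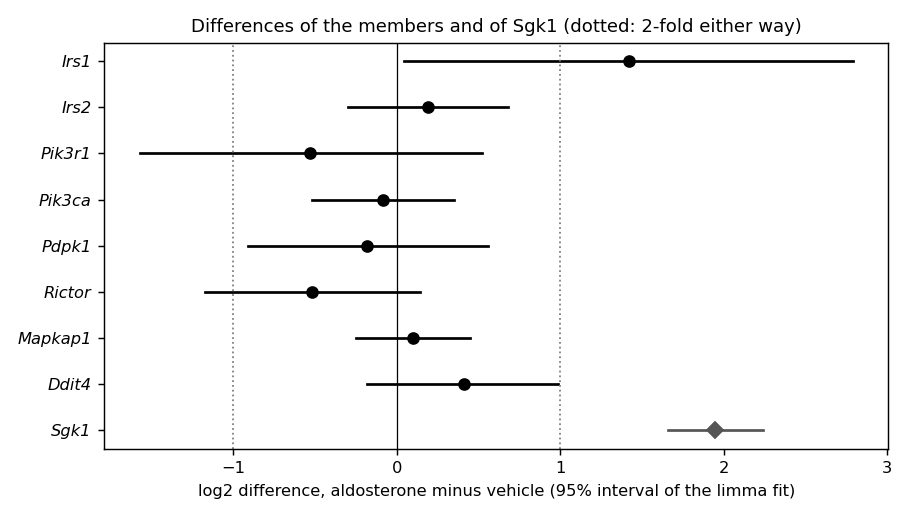
Log2 difference, aldosterone minus vehicle, with its 95% interval in the limma fit (horizontal axis) for each member (circles) and for Sgk1 (diamond); dotted lines mark 2-fold either way. Sgk1 lies at 1.95 with an interval from 1.66 to 2.24, and among the members only the interval of Irs1 leaves out 0.

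The intervals, which are not adjusted for the number of rows, bound the sizes that these 4 arrays allow. For 5 members, Irs2, Pik3ca, Pdpk1, Mapkap1 and Ddit4, the interval left out a 2-fold change in either direction, with Ddit4 at the edge. Those of Irs1, Pik3r1 and Rictor did not. The count fell to 3 (Irs2, Pik3ca and Mapkap1) with arrays centred and to 2 (Pik3ca and Mapkap1) without moderation, and it ran from 3 to 5 with an array left out. In a fit with a block for the replicate number the count was 6, with Pik3r1 added. The larger gap between rats of a group exceeded the difference between groups in 7 of the 8 members, Irs1 being the exception. In the vehicle group replicate 1 lay above replicate 2 in 7 members, the exception being Irs2, and in 69.0% of rows whose mean reached 4 but 35.6% of all rows. In the aldosterone group replicate 1 was the higher one in 7 members, the exception being Mapkap1, and in 53.6% and 39.4% of those rows. Rictor, with a mean of 3.98, was just short of that level.

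**Figure D3:**
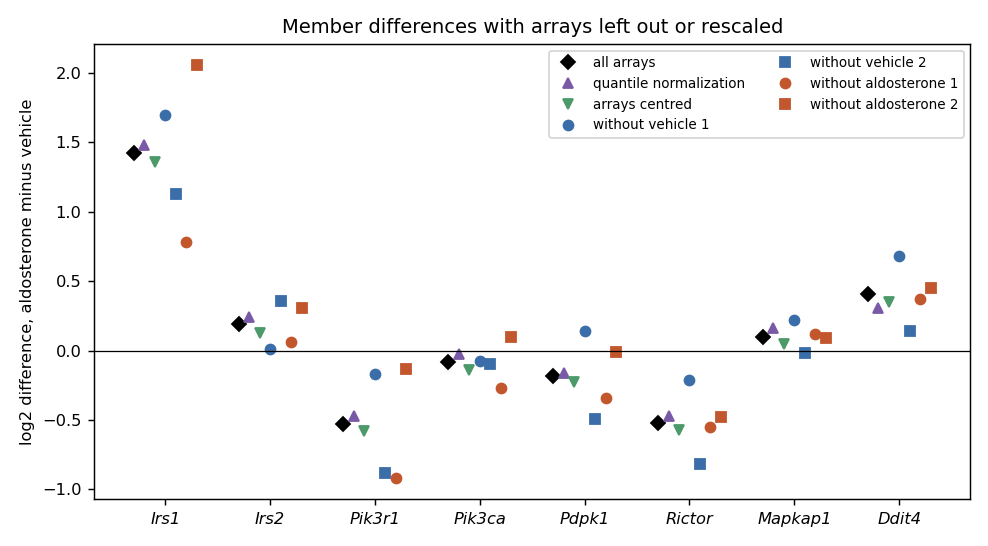
Log2 difference of each member (vertical axis) with all arrays (black diamonds), after quantile normalization or centring of arrays (triangles), and with 1 array left out (circles and squares). Irs1 stays above 0 at 0.78 to 2.06 with arrays left out and Rictor below 0 at -0.82 to -0.21, whereas Pik3ca, Pdpk1 and Mapkap1 lie on both sides of 0.

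Sgk1 encodes the kinase that lies below the members other than Ddit4. It stood at 10.51 and 10.64 in vehicle rats and at 12.54 and 12.52 in aldosterone rats. Its adjusted p was 0.332 in limma and 0.000558 in limma with the prior that follows level. Its interval, from 1.66 to 2.24, lay above the upper bound of every member but Irs1, whose upper bound was 2.79.

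The wider pathway was described through 9 lists. Of 122 genes, 95 were measured. None passed an adjusted p of 0.05 in limma in either direction, but neither did any row of the array (0%), so no list below could hold a gene that passed. Of the 95, 8 (8.42%) had an unadjusted p under 0.05 against 4.53% of rows. The groups did not overlap in 25 (26.3%), near the 27.8% of all rows. Their median difference was -0.0394, with 41 genes (43.2%) higher against 58.3% of all rows. All rows include the 65% that averaged under 3, near the floor, whereas only 6 of the 95 genes averaged below the median of all row means. The same shares among rows at the level of these genes were not computed.

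Upstream, none of the 5 measured genes for insulin and IGF receptors and the insulin-degrading enzyme passed the threshold, and their median difference was 0.0453. Insr, the insulin receptor gene, stood at 7.96 and 7.66 in vehicle rats and at 8.05 and 8.06 in aldosterone rats. Its groups did not overlap, with a difference of 0.24 (interval -0.15 to 0.64) that was 0.0934 without vehicle replicate 2 and 0.40 without vehicle replicate 1. Igf1r, the IGF1 receptor gene, lay between 2.58 and 2.94 in all rats, near the floor. Of 16 adaptor genes 11 were measured, none passed, and the median was 0.00199. Grb2, which links receptors to Ras, lay from 7.05 to 7.23, and Gab1, a docking protein of the EGF and HGF receptors, from 4.49 to 4.77. Among the measured adaptors Irs1 had the largest difference, and the lowest was -0.39.

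**Figure D4:**
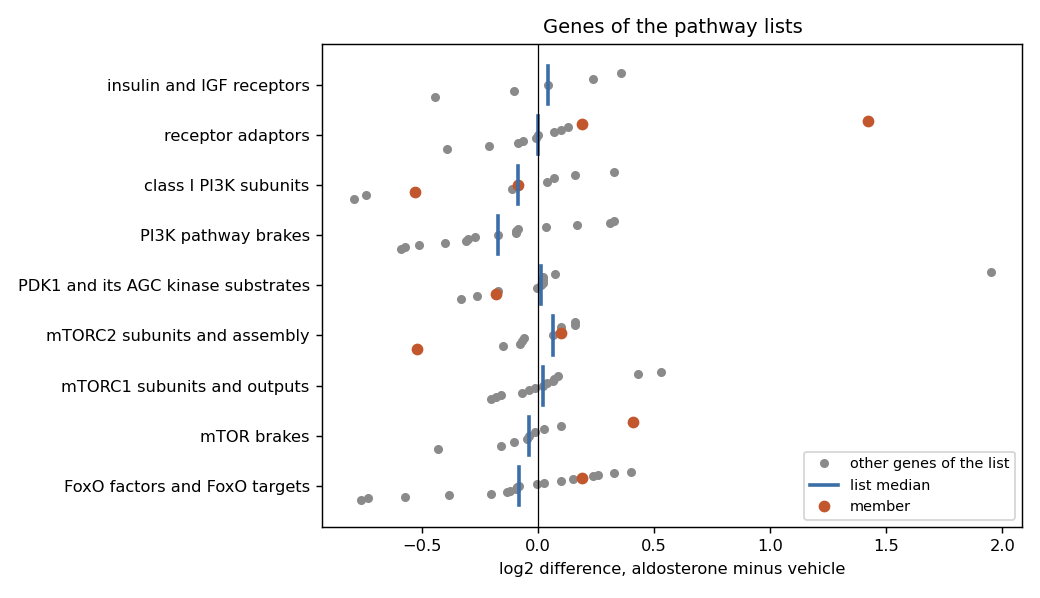
Log2 difference, aldosterone minus vehicle (horizontal axis), of every measured gene in the 9 pathway lists, with members in orange and list medians as blue bars; a gene can be in more than 1 list. The list medians run from -0.17 to 0.0654, and Irs1 at 1.42 and Sgk1 at 1.95 stand to the right of all other genes.

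All 9 class I PI3K subunit genes were measured, none passed, 5 were lower and the median was -0.0856. Pik3cb encodes p110 beta, a catalytic subunit that G protein-coupled receptors also engage. Its values were 7.39 and 7.08 in vehicle rats and 6.63 and 6.26 in aldosterone rats. Both aldosterone rats lay below both vehicle rats, by -0.79 on average (interval -1.32 to -0.26, unadjusted p = 0.0139, adjusted p = 0.876 in limma). Pik3r2, the gene of the regulatory subunit p85 beta, stood at 4.65 and 3.96 with vehicle and at 3.46 and 3.68 with aldosterone. Its groups did not overlap either, with a difference of -0.74 (interval -1.48 to 0.00437) that was -0.39 without vehicle replicate 1. The regulatory subunit gene Pik3r3 overlapped between groups (7.98 and 7.87 against 8.05 and 7.59), and Pik3cd, the leukocyte-enriched p110 delta gene, lay near the floor from 2.70 to 3.02. The catalytic subunit gene Pik3cg, named after its values were seen, had an unadjusted p = 0.0428 in limma and a difference of 0.33. It did not pass the adjusted threshold, and its values from 2.65 to 3.09 were also near the floor.

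Genes that oppose PI3K signalling were lower in 11 of 15 measured, with none past the threshold and a median of -0.17. That median was 0.0329 without vehicle replicate 1 and -0.35 without vehicle replicate 2. Trib1, a pseudokinase gene whose relatives bind AKT, stood at 9.48 and 9.21 in vehicle rats and at 8.91 and 8.63 in aldosterone rats. Those groups did not overlap, and the difference was -0.57 (interval -1.03 to -0.12, adjusted p = 0.945 in limma). Socs3, which marks IRS proteins for degradation and was named after its values were seen, differed by -0.59 (unadjusted p = 0.0454 in limma). It did not pass the adjusted threshold and lay close to the floor, at 3.55 and 3.04 in vehicle rats and 2.65 and 2.77 in aldosterone rats. Inppl1, the gene of the lipid phosphatase SHIP2, overlapped between groups at 7.67 and 7.30 against 7.03 and 7.32. Pik3ip1, an inhibitor of the catalytic subunit, lay near the floor in all rats, from 2.32 to 2.86, and was highest in aldosterone replicate 2.

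Besides Sgk1, no gene among PDK1 and its kinase substrates (11 of 18 measured, median 0.0157) had an unadjusted p under 0.05, and none passed the adjusted threshold. Akt1 and Akt2, the kinases that share PDK1 and mTORC2 with SGK1, differed by -0.26 (interval -0.89 to 0.38) and 0.0728 (interval -0.44 to 0.58). Sgk2, a close relative of Sgk1, ranged from 3.93 to 5.57 within the vehicle group alone.

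The mTORC2 list (11 of 12 measured) had a median of 0.0654 and no gene past the threshold, with Rictor at its low end. Mtor, the kinase gene, differed by 0.0654 (interval -0.37 to 0.50), and Mlst8, a subunit of both mTOR complexes, by -0.0665 (interval -0.50 to 0.37). Prr5, an mTORC2 subunit gene, lay from 3.30 to 3.87, and Prr5l, its paralog, from 2.08 to 2.38, below the median of all row means on average.

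In the mTORC1 list (13 of 19 measured) none passed and the median was 0.0209. Rptor, the gene of the scaffold that defines that complex, lay from 2.94 to 3.21. The list of mTOR brakes (9 of 15 measured) had no gene past the threshold and a median of -0.0394, with Ddit4 highest. Tsc1 and Tsc2, which encode the complex that REDD1 acts through, differed by -0.0394 (interval -0.72 to 0.64) and -0.0457 (interval -0.57 to 0.48). Sesn3, a sestrin gene, overlapped between groups at 4.81 and 4.62 against 5.07 and 4.41.

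FoxO factors are held out of the nucleus by AKT and SGK1, and their targets include Irs2 and Insr. Of 21 genes in this list 19 were measured, none passed, 11 were lower and the median was -0.0787. Foxo1 stood at 7.06 and 7.05 in vehicle rats and at 6.70 and 6.65 in aldosterone rats. Each group was tight and the groups did not overlap, with a difference of -0.38 (interval -0.65 to -0.11, unadjusted p = 0.0168, adjusted p = 0.891 in limma). It ranged from -0.41 to -0.35 with arrays left out. The interval included both signs with the prior that follows level (-1.03 to 0.27) and with rows below the median left out (-0.89 to 0.13). It stayed negative after quantile normalization (-0.59 to -0.0349) and array centring (-0.81 to -0.0629). Foxo3 overlapped between groups, with a difference of -0.0876 (interval -0.49 to 0.32). Cited2, a transcriptional coregulator gene named after its values were seen, differed by -0.73 (unadjusted p = 0.0237, adjusted p = 0.932 in limma). Klf15, a glucocorticoid target in other tissues, lay from 2.10 to 2.70, and Txnip, a brake on glucose uptake, from 12.74 to 12.92.

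The profile of Irs1 over the 4 arrays was set against those of 7939 genes whose row means were at or above the median of all rows, each profile taken around its own mean. Tlr4, the lipopolysaccharide receptor gene, was nearest, at a Euclidean distance of 0.361 log2 units, with 6.77 and 6.20 in vehicle rats and 8.12 and 7.25 in aldosterone rats. Ppargc1b, a coactivator gene of mitochondrial biogenesis, followed at 0.387, the lipoprotein receptor gene Vldlr at 0.452, the palmitoyltransferase gene Zdhhc13 at 0.468 and the phosphodiesterase gene Pde9a at 0.509. All 5 were highest in aldosterone replicate 1, like Irs1, and their adjusted p in limma was from 0.873 to 1.00. Slc9a3, the sodium-proton exchanger gene among the surface colonocyte markers, was also highest in that rat, as were the markers Slc26a3 and Car4. The other measured surface markers, Aqp8, Krt20, Guca2a, Guca2b, Cdh1, Epcam and Krt8, were not. Whether any of these markers bears on Irs1 was not tested. With 4 arrays and this many genes, a near profile is a description of these rats only.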

How the data were processed

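The authors deposited 1 log2 expression value per row and array. The submitters' processing notes name Affymetrix Expression Console, Partek and RMA without a version or role, and the log2 scale was read from the range of the values, 1.36 to 13.7. For the array's genome build and for detection calls, the sources used here say nothing. Rows were named through the platform annotation, and all 8 members kept their symbol when matched by Entrez ID to RefSeq (GRCr8), from which promoter windows also came. No window was found for Irs2.

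The fit was made in R 4.3.3 with limma 3.58.1 on all rows (eBayes with a constant prior variance, treatment as the only term, two-sided), with Benjamini-Hochberg adjustment over 19403 rows. Tables and plots used Python 3.11.15, pandas 2.3.3 and matplotlib 3.10.9. The labels describe the arrays of a group as biological replicates, and their number limits the precision.

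The members and gene lists were chosen with earlier results of these data known. Named are the members, pathway genes fixed by name, and any list gene past the threshold or changed at least 1.5-fold at an unadjusted p under 0.01. Pik3cg, Socs3, Cited2, the genes nearest to Irs1 in profile and markers of surface, goblet and enteroendocrine cells are named beside these. Of the fixed names, Grb10, Sgk3, Deptor, Rheb and Sesn1 are among those not analysed here. The GC and CCAAT boxes were searched after the sequences were seen. Alternatives were quantile normalization, array centring, filters on row means (25th percentile, median, 4), a prior that follows level, a robust prior, no moderation, a block for the replicate number, and each array left out in turn. Averaging of a gene's rows was planned but not fitted, because each of the 8 members has a single row and it could change nothing for them.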

Additional observations from a re-analysis of the deposited data

How the results depend on the processing

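Leaving out 1 rat moved the difference of each of the 8 members by over 1.5 times. No member passed the threshold under any alternative that was run (lowest adjusted p of a member 0.313, for Irs1 with the prior that follows level and the replicate block). Rows called were 0 as reported, 21 with the prior that follows level, 1 with rows below the median left out and, in settings chosen after seeing the data, 12 with only rows averaging at least 4 kept and 6 with that prior and the replicate block. Sgk1 was the 1 pathway gene called with that prior, with and without the block, and with only rows averaging at least 4 kept. That filter also removed Rictor, so that 0 members were apart and lower. With arrays centred 1 member was apart and higher. With an array left out, where fewer values make separation easier, 2 to 4 members were apart and higher and 1 to 4 apart and lower. The median member difference ran from -0.10 to 0.10 over all alternatives, on both sides of 0.

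The labels number the rats 1 and 2 in each group without saying that the numbers pair them. Deviations of same-numbered arrays correlated at 0.148 over all rows and 0.0934 over those averaging at least 4. The replicate block called 0 rows, and the adjusted p of Irs1 was 0.629 with it (unadjusted 0.00726). Pik3r1 differed by -0.49 between the rats numbered 1 and by -0.56 between those numbered 2. Its interval with the block was -0.82 to -0.23 (adjusted p = 0.641 in limma). Among the members only the intervals of Irs1 and Pik3r1 left out 0 with the block. With the constant prior the block changed no call. With the prior that follows level, the rows called fell from 21 to 6 when the block was added, and no member was called either way.

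With arrays left out, differences crossed 0 for Pik3ca (-0.27 to 0.10), Pdpk1 (-0.49 to 0.14) and Mapkap1 (-0.0167 to 0.22). Among the other named genes they did so for Igf1r (-0.13 to 0.22), Grb2 (-0.0898 to 0.0938), Gab1 (-0.20 to 0.0746), Pik3cd (-0.0883 to 0.23), Pik3r3 (-0.34 to 0.12), Akt1 (-0.55 to 0.0438), Akt2 (-0.15 to 0.30), Sgk2 (-0.82 to 0.82), Mtor (-0.11 to 0.24), Mlst8 (-0.25 to 0.11), Prr5 (-0.36 to 0.21), Prr5l (-0.0132 to 0.22), Tsc1 (-0.34 to 0.26), Tsc2 (-0.24 to 0.14), Sesn3 (-0.31 to 0.36), Foxo3 (-0.23 to 0.0587), Klf15 (-0.38 to 0.22) and Txnip (-0.09 to 0.0855). Array centring turned Igf1r to -0.0125, Grb2 to -0.0558 and Sesn3 to -0.0323, and quantile normalization turned Tsc2 to 0.00463. List medians with an array left out ran from -0.13 to 0.22 for receptors, -0.0573 to 0.0746 for adaptors, -0.27 to 0.0075 for PI3K subunits, -0.24 to 0.16 for PDK1 and its substrates, -0.0404 to 0.12 for mTORC2, -0.0886 to 0.12 for mTORC1, -0.17 to 0.11 for mTOR brakes and -0.09 to -0.00173 for the FoxO list.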
